A study of Solanum tuberosum and Solanum acaule with 12 samples.

Results

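The response of potato shoots to freezing was measured in the cultivar Atlantic, an autotetraploid Solanum tuberosum, from 3 freezing and 3 control libraries out of the 12 libraries of the series. Freezing shoots were explants held while their chamber went down by 2 °C each hour, starting at 22 °C and ending at -4 °C. Control shoots grew in long days. The other 6 libraries are the same comparison in the wild potato S. acaule. The labels call the replicates biological but name no plants, cultures or pools behind them, so each p-value speaks of the spread among 3 libraries a group. In bulk tissue, fewer cells of a type and less RNA per cell cannot be told apart. The hour of harvest and the light in the freezing chamber are not given in the labels, so cold, time and light cannot be told apart in the comparison. Values are the deposited signal, a scaled abundance described below, summed from 252591 assembled transcripts to 60683 loci by dropping the transcript number from each identifier. Loci at 1 or more in at least 3 of the 6 libraries were tested, which left 27034, and these held 98.67% to 99.03% of the signal of each library. No gene name was paired with the loci, so markers of shoot tissue could not be looked up and the tissue label was not checked. Freezing replicate 2 stood apart from the other libraries, with a total signal of 1102442 against 961746 to 1002687 in the rest, and counts and sums are given with and without it where it moves them.

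Plants sense chilling within minutes to hours and answer it with a cascade of transcription factors, of which the CBF/DREB family is the best known, that switches on cold-regulated genes for protective proteins, compatible sugars and membrane lipids. Growth and photosynthesis genes are commonly turned down in the same period. Cultivated potato is known as sensitive to freezing and poor at cold acclimation, whereas S. acaule is among the hardier wild potatoes. Such roles are background only, since the identifiers below carry no annotation.

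The transcript pool after freezing had more loci that fell than rose, but the loci that fell were mostly weakly expressed. By limma's moderated test with Benjamini-Hochberg adjustment over all 27034 loci at 0.05, 3535 loci (13.1%) were called. Of these, 1227 (4.54%) were higher and 2308 (8.54%) lower in freezing shoots. The middle of the distribution barely moved: the median log2 fold change of all loci, on the log2(signal + 1) scale used throughout, was -0.02, with 25% of loci below -0.38 and 25% above 0.30. Without regard to any test, 48.5% of loci were higher. The number of calls rested on the control libraries and on freezing replicate 3. Without control replicates 1, 2 and 3 it was 575, 846 and 1026, and 1441 when freezing replicate 3 was dropped. It was 3145 when freezing replicate 1 was dropped and 4334 when freezing replicate 2 was. A block for the replicate number left 1052 calls (3.89%), of which 328 (1.21%) were higher and 724 (2.68%) lower. In each of these settings more loci fell than rose. For single transcripts not summed to loci the numbers were nearly even, at 5165 higher and 5209 lower. Among loci with a genome position, 1129 were higher and 1561 lower in the main fit. When libraries were centred on their median log2 value, these became 1484 and 1413.

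**Figure D1:**
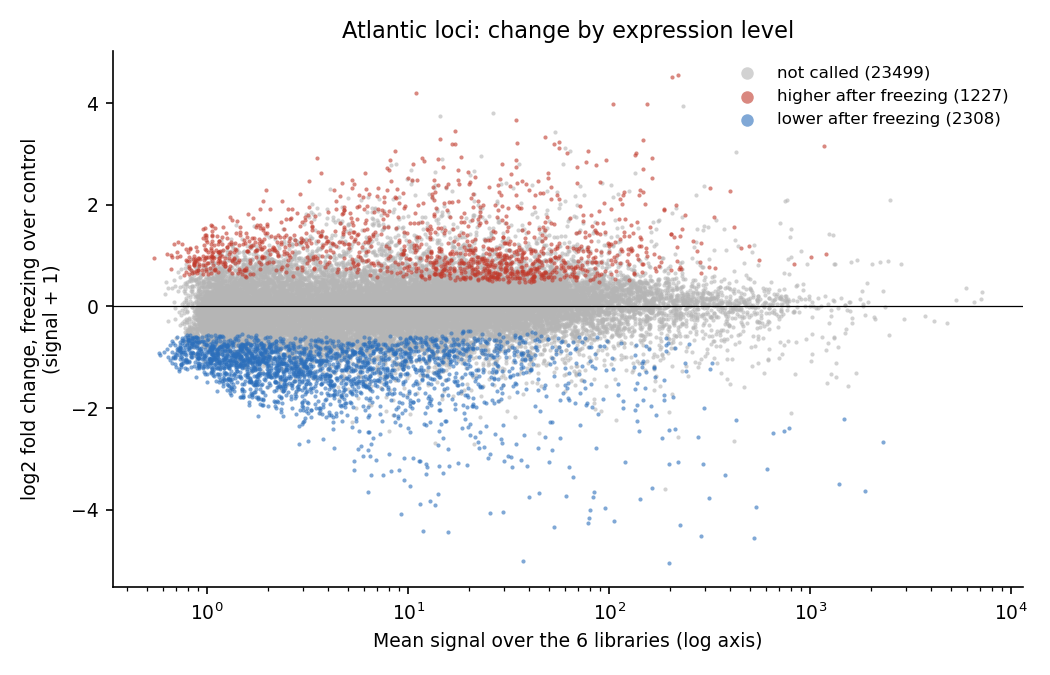
Each point is 1 of the 27034 Atlantic loci tested. The x axis is the mean signal over the 6 libraries (log axis) and the y axis the log2 fold change of freezing over control. Red points were called higher (1227), blue points lower (2308) and grey points were not called; the lower calls crowd at the left, and at a mean of 30 to 300 red points outnumber blue ones.

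Direction went with expression level. Loci were classed by their mean signal over all 6 libraries, so that risen and fallen loci were treated alike. Of the 7242 loci with a mean under 3, 290 (4.0%) rose and 1051 (14.5%) fell. Among the 6473 loci between 3 and 10, 201 (3.11%) rose and 659 (10.2%) fell. Together these weakly expressed loci made up most of the tested loci but little of the signal.

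The balance evened out and then turned with rising level. Between 10 and 30, 334 of 7014 loci rose and 372 fell. Between 30 and 100, 297 of 4536 (6.55%) rose and 154 (3.4%) fell, and between 100 and 300, 92 of 1274 (7.22%) rose and 57 (4.47%) fell. At 300 and above only 28 of 495 loci (5.66%) were called, 13 higher and 15 lower. Without freezing replicate 2 the calls there were 58, of which 15 were higher and 43 lower, and between 100 and 300 there were 112 higher and 101 lower. Between 10 and 30 the balance then turned, to 554 higher and 478 lower. These differences between classes were not tested, since loci are not replicates.

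The medians over all tested loci of a class, called or not, gave a similar but not identical order. The median log2 fold change was -0.14 under 3, -0.11 between 3 and 10, 0.04 between 10 and 30, 0.12 between 30 and 100, 0.11 between 100 and 300 and 0.02 at 300 and above. Between 10 and 30 and at 300 and above the median was positive although slightly more calls were lower than higher. The signs of the 2 lowest classes and of the classes from 30 to 300 were the same in every setting tried at locus level, including both other scalings and each library left out. Between 10 and 30 the median fell to -0.02 when libraries were rescaled to a common total. At 300 and above it was also negative when libraries were so rescaled, or when freezing replicate 2 or control replicate 2 or 3 was left out. Among calls between 30 and 100, the share that rose was 65.9%, against 50.7% with libraries rescaled and 48.6% and 49.1% without control replicates 1 and 2.

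Spread among replicates was wider after freezing when all 3 freezing libraries were counted. The median SD of log2(signal + 1) over the tested loci was 0.297 among the 3 freezing libraries and 0.185 among the 3 control libraries. Between freezing replicates 1 and 3 alone it was 0.188. With all 3 freezing libraries the wider spread was present in each level class. It ran from 0.271 in freezing against 0.166 in control for loci between 30 and 100, to 0.336 against 0.196 for those between 3 and 10. For freezing replicates 1 and 3 alone these classes had 0.167 and 0.211. At 300 and above they had 0.150, against 0.232 in control. Whether the wider spread rests on freezing replicate 2 alone was not tested.

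The fall among weak loci was steepest in those without a genome position. A locus was called unplaced when none of its transcripts has a row in the placement table used here. This split was chosen after the data were seen. Of the 2929 unplaced loci tested, 98 (3.35%) rose and 747 (25.5%) fell. Of the 24105 placed loci, 1129 (4.68%) rose and 1561 (6.48%) fell. Unplaced loci were 10.8% of the loci tested, and they made up 32.4% of those that fell and 7.99% of those that rose.

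The difference was also present at a matched level. Among loci with a mean under 3, 27.9% of the 1789 unplaced loci fell, against 10.1% of the 5453 placed ones. Between 3 and 10 it was 27.4% of 712 against 8.05% of 5761, and between 10 and 30 it was 17.2% of 256 against 4.85% of 6758. At 100 and above none of the 65 unplaced loci fell. The percentage that fell was larger among unplaced than placed loci in each of 13 settings at locus level. It ran from 5.25% (no filter on low values) to 25.5% in unplaced loci, and was 5.74% against 1.07% without control replicate 1. With the replicate block it was 9.94% against 1.8%.

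**Figure D2:**
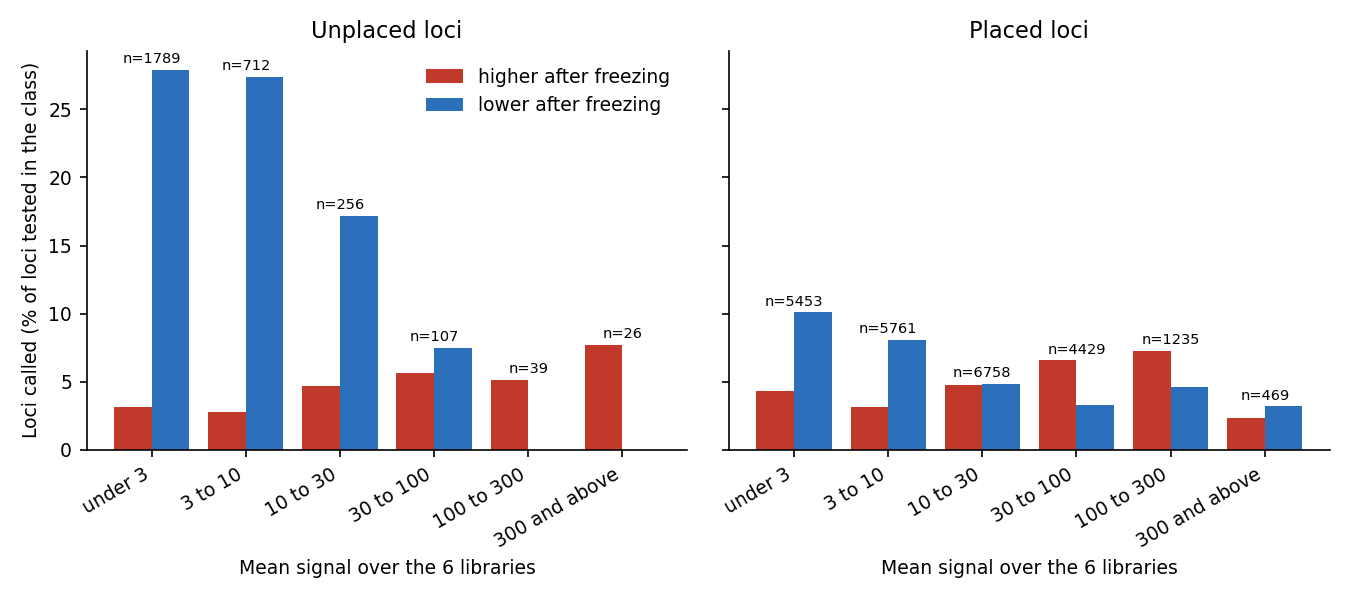
Percentage of tested loci called higher (red) and lower (blue) after freezing, for unplaced loci (left) and placed loci (right), in classes of mean signal over the 6 libraries; n is the number of loci tested in a class. Among unplaced loci with a mean under 3, 27.9% were lower, against 10.1% of placed loci of that level.

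The number of loci detected showed the same contrast, but this is not separate support. The 747 unplaced loci that fell had median group means of 3.22 in control and 0.804 after freezing, on either side of 1. They are thus in part counted again, and the split was chosen after the data were seen. In freezing replicates 1, 2 and 3, 2626, 2197 and 2590 unplaced loci reached a signal of 1, against 3151, 2935 and 2966 in control replicates 1, 2 and 3. The groups did not overlap, and the difference of the means was -546 (two-sided exact permutation p = 0.1, which is the smallest that 3 libraries a group allow). For placed loci the numbers were 24456, 23304 and 24355 after freezing and 24100, 23997 and 23898 in control. There the groups overlapped (difference 40.0, exact permutation p = 1.0, two-sided).

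The summed signal of all unplaced loci overlapped between groups. They held 4.67%, 8.06% and 4.14% of the signal in the freezing libraries and 4.74%, 4.10% and 3.70% in the control libraries (exact permutation p = 0.4, two-sided). The 747 that fell were a small part of this, at 0.138%, 0.077% and 0.131% after freezing against 0.455%, 0.471% and 0.430% in control. Their median over loci of the group mean was 0.804 after freezing and 3.22 in control. The 4 with the highest control mean, a choice made after their values were seen, include AtlantEVm016004, with a signal of 11.2, 14.8 and 9.36 in the freezing libraries and 122, 132 and 87.4 in control (log2 fold change -3.17, SE 0.23, limma adjusted p = 0.00398). The other 3, AtlantEVm089465, AtlantEVm033637 and AtlantEVm083487, had log2 fold changes of -1.84, -3.06 and -2.27 and are single transcripts. What the unplaced transcripts are was not tested.

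How many transcripts an assembled locus held also went with the direction. Of loci with 1 transcript at the minimum signal, 1246 of 8076 (15.4%) fell and 4.85% rose. Of loci with 8 or more such transcripts, 48 of 1251 (3.84%) fell and 88 (7.03%) rose. Level goes with this too, since the median mean signal was 2.53 in the first and 61.2 in the second. Within called loci the transcripts moved together: among the 768 risen loci with at least 2 transcripts at the minimum, 96.4% of the 3522 transcripts had a higher mean after freezing. Among the 893 fallen ones 95.4% of 3230 had a lower mean. For loci not called, 78.0% of transcripts went with the sign of their locus. A locus is the sum of its transcripts, so these shares are descriptions.

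Most called changes were moderate, with 2104 calls (7.78%) at 2-fold or more, 656 (2.43%) higher and 1448 (5.36%) lower, and 328 (1.21%) at 4-fold or more, 134 (0.496%) higher and 194 (0.718%) lower. Of the 3535 calls, 96 were below 1.5-fold, 1335 between 1.5-fold and 2-fold, and 1776 between 2-fold and 4-fold. Another 243 were between 4-fold and 8-fold, 113 higher and 130 lower, and 85 were at least 8-fold, 21 higher and 64 lower. The larger the change, the more of the loci showing it were called, with 29.5% of the 4519 loci between 1.5-fold and 2-fold, 64.2% of the 2767 between 2-fold and 4-fold, and 91.4% of the 93 at 8-fold or more. Strongest changes lay at higher levels than the common ones: the median mean signal of fallen loci was 2.68 between 1.5-fold and 2-fold, 3.15 between 2-fold and 4-fold and 36.9 at 8-fold or more. For risen loci these medians were 18.6, 8.95 and 56.0. Adding 1 to each value shrinks the change of weak loci, and with 0.1 added instead, 289 calls reached 8-fold.

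Loci that appeared or disappeared outright were few. Listed at 0 in all 3 control libraries and at 1 or more in all 3 freezing libraries were 7 loci, whose freezing means had a median of 1.95 and reached 3.93. The reverse held for 7 loci, with control means up to 18.3. No fold is given for either set.

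Most of the dominant loci were shared by both groups. The 100 loci with the highest mean after freezing and the 100 with the highest mean in control had 74 in common, and of the 1000 highest 818 (81.8%) were shared. None of the 10 loci with the highest mean over all libraries was called. AtlantEVm025617, the highest, had a signal of 9357, 5242 and 8948 in the freezing libraries and 7184, 7538 and 4582 in control, and the groups overlapped (log2 fold change 0.27, SE 0.44, limma adjusted p = 0.728). By limma, 2 of the 10 loci highest in control fell, and 10 of the 100 highest, where 8.54% of all loci tested did. None of the 10 highest after freezing was called. Of the 100 highest after freezing, 4 rose, where 4.54% of all did. Ranking on the group where a locus is high favours these directions.

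No difference in how concentrated the pool was could be detected. The 10 most abundant loci of each library held 4.57%, 7.35% and 5.22% of the signal after freezing, against 5.36%, 4.84% and 5.12% in control. The number of loci that together held 50% of the signal was 1282, 851 and 1244 after freezing and 925, 1211 and 1064 in control. The values of freezing replicate 2 were the extreme ones in both. Over 6 measures of concentration and detection, adjusted exact permutation p-values were 0.9 (two-sided, lowest raw p = 0.6), a design in which 0.1 is the smallest raw p. The freezing effects on these measures were also compared with those in S. acaule by permuting labels within each species. None of the 6 differences passed (exact permutation, two-sided, adjusted p = 0.755 for each), and all 6 changed sign without control replicate 3 of S. acaule.

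Redistribution of signal was measured without choosing loci, as the percentage of the total that lies in different loci in a pair of libraries. Between a freezing and a control library it was 20.9% on average over 9 pairs, from 17.5% to 23.0%. Within the control group it was 12.5%, from 11.2% to 13.6%. Within the freezing group it was 14.3% for replicates 1 and 3, 20.7% for replicates 2 and 3 and 24.3% for replicates 1 and 2. Freezing replicate 2 was therefore as far from its own group as freezing was from control.

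The mean of between-group pairs exceeded that of within-group pairs by 4.75 percentage points (two-sided exact permutation p = 0.1, again the smallest). Without freezing replicate 2 the excess was 7.59. It was 2.51, 3.83 and 2.44 without control replicates 1, 2 and 3 (exact permutation p = 0.6, 0.3 and 0.4, two-sided).

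**Figure D3:**
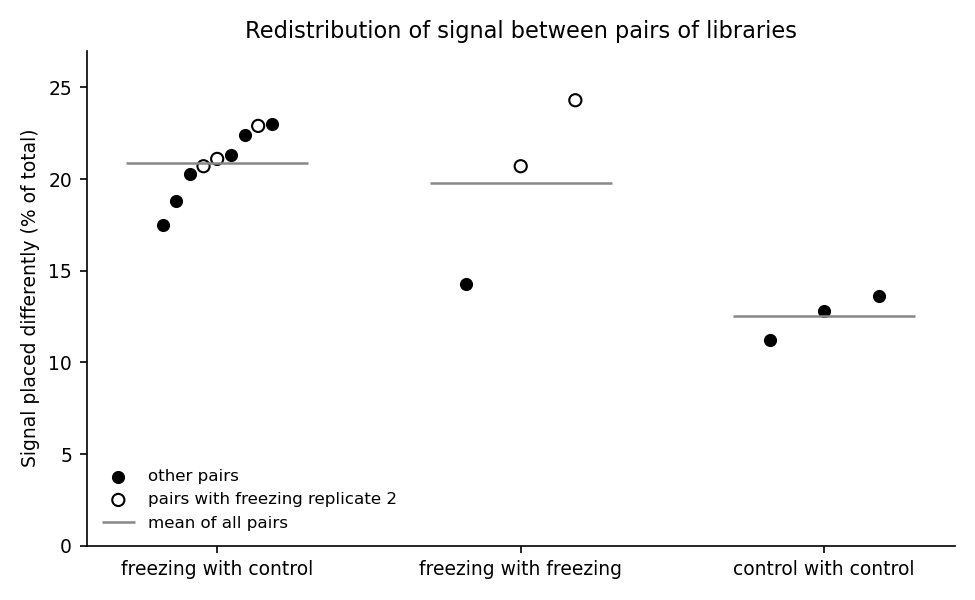
Percentage of total signal that lies in different loci, for each pair of the 6 Atlantic libraries (points; open points are pairs with freezing replicate 2), with the mean of each kind of pair as a grey line. The 9 pairs of freezing with control lie between 17.5% and 23.0%, above the 3 control pairs at 11.2% to 13.6%, and the 2 open points within freezing lie at 20.7% and 24.3%.

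Freezing replicate 2 differed broadly from its group. It was the lowest freezing library at 47.5% of the loci not called and at 59.5% of those called lower, and 25501 loci reached a signal of 1 in it, against 26864 to 27251 in the other libraries. It also held loci that were far higher than elsewhere: in it 80 loci were at 100 or more and at least 2-fold above every other library, and together they held 5.84% of its signal, against 0.709% to 1.24% in the other 5 libraries. Of the 80, 3 were called, against 13.1% of all loci tested, and being high in 1 library works against a call. Unplaced were 34 of them and 9 of the 12 highest, where 10.8% of the loci tested were unplaced. AtlantEVm062797 had a signal of 1429, 10242 and 1251 in freezing replicates 1, 2 and 3 and 1140, 416 and 496 in control. AtlantEVm041679 was at 92.0, 2297 and 76.4 after freezing and 49.0, 20 and 26.8 in control. Both were high in 1 library, and neither was called. Freezing replicates 1 and 3 held 63 and 42 loci of this kind, and the control libraries 1, 22 and 4.

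Called loci carried part of the shift in signal between the group means. The same contrast chose these loci, so their sums are a description with no test. Risen loci held 6.46%, 5.67% and 6.86% of the signal after freezing and 2.58%, 2.83% and 2.75% in control, a gain of 3.61 percentage points. Fallen loci held 1.79%, 1.81% and 1.82% after freezing and 7.26%, 6.03% and 6.94% in control, a loss of 4.94. Over the smaller set of loci called with the replicate block, the gain was 1.56 and the difference for fallen loci -1.53 percentage points. The risen set, although smaller in number of loci, held about as much signal after freezing as the fallen set held in control. Loci not called held 90.4%, 91.6% and 90.1% after freezing and 89.0%, 90.1% and 89.2% in control.

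Gains were spread over more loci than losses. Between the mean percentages of the groups, 16.0% of the signal lay in different loci. Risen calls made up 22.5% of all gains and fallen calls 30.8% of all losses. The largest 407 gains made up 50% of the total gain, and the largest 268 losses 50% of the total loss. Without freezing replicate 2 these numbers were 561 and 220. Of the 10 largest gains 1 was called higher, and of the 10 largest losses 5 were called lower. Of the 100 largest the numbers were 31 and 34, where 4.54% of all loci tested were called higher and 8.54% lower. Ranking on the difference between the same groups favours such calls.

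Small and large changes moved different amounts. The 571 loci that rose by less than 2-fold held 2.61%, 2.27% and 2.76% after freezing and 1.46%, 1.62% and 1.52% in control. The 134 that rose at least 4-fold held 1.25%, 1.2% and 1.3% after freezing and 0.181%, 0.168% and 0.210% in control, so their gain was close to that of the far more numerous small changes. Among fallen calls, most of the loss lay in few loci. The 194 that fell at least 4-fold held 0.295%, 0.587% and 0.404% after freezing and 3.88%, 2.51% and 3.60% in control. The 860 that fell by less than 2-fold held 0.701%, 0.594% and 0.664% after freezing and 1.2%, 1.27% and 1.22% in control.

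The redistribution was also present in libraries that did not choose the loci. For each of the 9 choices of 1 freezing and 1 control library to hold out, the 500 loci with the largest moderated t in each direction were taken from the other 4 libraries. The 500 highest-ranked held 2.09% to 3.52% of the held-out freezing library and 0.678% to 1.1% of the held-out control library. Their summed signal was higher in the freezing library in 9 of 9 choices, by a median of 2.92 times (range 2.17 to 3.78). The 500 lowest-ranked held 0.294% to 1.94% in freezing and 1.42% to 4.04% in control. Their sum was lower in freezing in 9 of 9 choices, at a median of 0.247 times the control (range 0.211 to 0.550). The range reached 0.550 when freezing replicate 2 and control replicate 2 were held out together. Locus by locus, 384 to 456 of the 500 highest-ranked were higher in the held-out freezing library, and 448 to 493 of the 500 lowest-ranked were not. Over all loci tested, 48.5% had a positive log2 fold change in the fit of all 6 libraries. The share over all loci was not computed for each held-out pair, so the 2 directions cannot be compared in strength. The 9 choices reuse the same 6 libraries, so they are not independent.

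**Figure D4:**
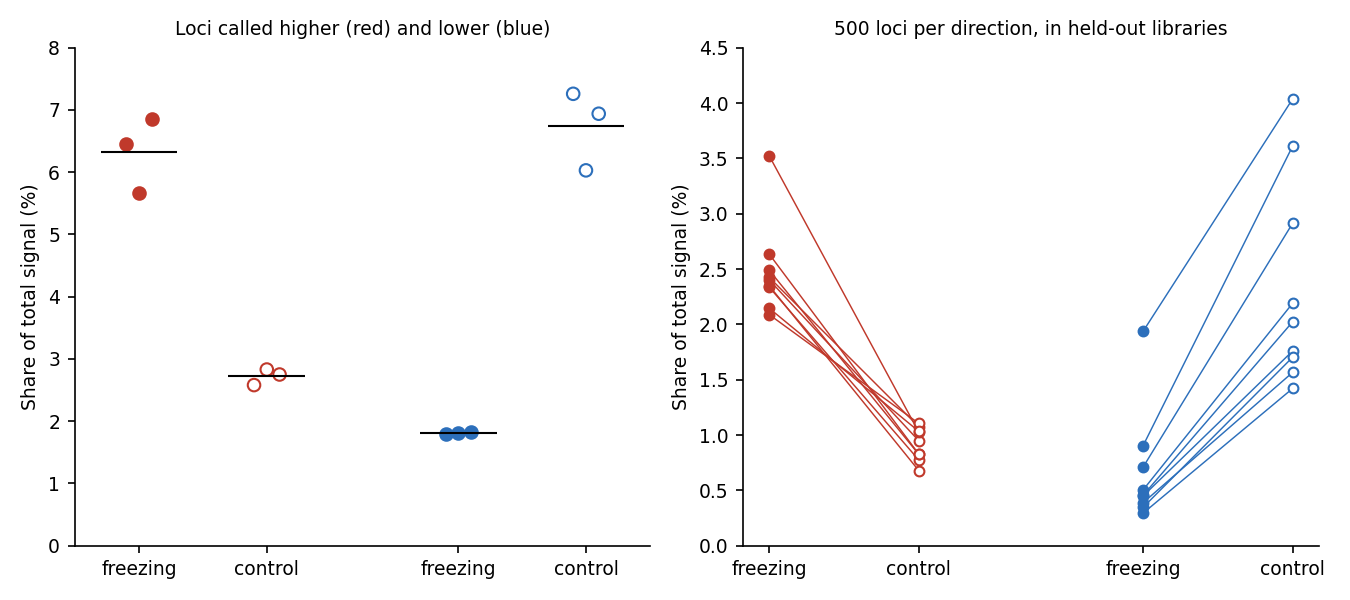
Percentage of total signal in each library (left) held by the 1227 loci called higher (red) and the 2308 called lower (blue), in freezing (filled) and control (open) libraries with the mean as a line; and (right) held by 500 loci per direction ranked in the other 4 libraries, in the held-out freezing and control library, with a line for each of the 9 choices. Risen loci held 5.67% to 6.86% after freezing and 2.58% to 2.83% in control; all 18 lines on the right keep the direction of the ranking.

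Individual loci are named by a rule: they were called, their groups did not overlap, and the group with the larger mean averaged 10 or more. The rule was met by 805 higher and 776 lower loci. No overlap adds nothing to a call here, since all 3535 called loci had it, and so did 6190 (26.3%) of those not called. The 7 with the largest fold and the 6 with the largest difference of group means are named in each direction. Of the 26 named, 25 have a position on a chromosome. Transcripts of AtlantEVm006766, AtlantEVm012544, AtlantEVm013611, AtlantEVm022270 and AtlantEVm023379 also have positions on unanchored scaffolds. Chromosome copies 0 to 4 are as the placement table numbers them, coordinates are as deposited, and no source used here names the genome build. The table pairs each placement with a gene model but marks no exon, intron or UTR.

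Among the strongest rises, AtlantEVm008346 was the most even across replicates. It had a signal of 379, 446 and 360.4 in freezing replicates 1, 2 and 3 and 16.2, 13.5 and 19.6 in control (log2 fold change 4.51, SE 0.18, limma adjusted p = 0.00121). All 13 of its transcripts at the minimum signal were higher without overlap between groups. The placed transcripts are spread over chromosome copies 1 to 4 of chromosome 2, and on copy 2 they lie at chr2:16939483-16943049.

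AtlantEVm006205 rose by more but varied more, at 329, 685 and 251 after freezing and 19.5, 7.38 and 24.8 in control (log2 fold change 4.55, SE 0.52, limma adjusted p = 0.00735). All 10 of its transcripts at the minimum had no overlap between groups, on copies 0 and 3 of chromosome 8 and copy 4 of chromosome 7. AtlantEVm036638, a single transcript on copy 0 of chromosome 9 at 35214374 to 35215195, was at 16.3, 30.8 and 17.6 after freezing and listed at 0, 0.632 and 0 in control (log2 fold change 4.21, SE 0.32, limma adjusted p = 0.00415). Every control library was close to silent at this locus. The log2 fold change of AtlantEVm036638 was 6.74 with 0.1 added, so its size is set by the pseudocount.

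AtlantEVm007657 was at 251, 137 and 490.3 after freezing and 9.58, 15.9 and 23.1 in control (log2 fold change 3.99), on chromosome 12. AtlantEVm014261 was at 209.8, 249.9 and 131 after freezing and 13.4, 8.42 and 12 in control (3.98), on chromosome 6. Both were called in each of 12 alternatives. The last of the 7 were less secure, with freezing values that differed several-fold among replicates. AtlantEVm013603 on chromosome 8 was at 46.7, 25.9 and 124 after freezing and 1.79, 3.0 and 6.14 in control; it was not called without control replicate 1 or 2. AtlantEVm012859 on chromosome 9 was at 23.5, 5.27 and 70.6 after freezing and 0.841, 1.17 and 1.1 in control, and lost its call in 7 of 12 alternatives.

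Strong falls included loci that were abundant in control. AtlantEVm018381 on chromosome 3 had a signal of 24.0, 58.2 and 48.4 after freezing and 1168, 727 and 1141 in control (log2 fold change -4.57, SE 0.36, limma adjusted p = 0.00416). AtlantEVm034950, on copies 3 and 4 of the same chromosome at 768621 to 769226 and 731507 to 731913, was at 9.99, 39.1 and 24.9 after freezing and 663, 309 and 674 in control (log2 fold change -4.52). Freezing and control libraries were far apart in both, and the calls held in 12 of 12 alternatives.

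The most even falls were of loci with a moderate control level. AtlantEVm006766 on chromosome 9 was at 0.451, 0.368 and 0.543 after freezing and 30, 37.7 and 25.4 in control (log2 fold change -4.45, SE 0.19, limma adjusted p = 0.00121). AtlantEVm015379, on copies 0, 2, 3 and 4 of chromosome 11, was at 4.96, 3.23 and 4.02 after freezing and 111, 113 and 81.4 in control (log2 fold change -4.34, SE 0.20, limma adjusted p = 0.00139). All 4 transcripts at the minimum of each were lower without overlap between groups. On copy 0 the placements of AtlantEVm006766 span 2369782 bases and 2 gene models, so this locus may join more than 1 gene.

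AtlantEVm001656, the only unplaced named locus, was at 1.33, 1.0 and 1.39 after freezing and 86.0, 86.2 and 48.0 in control (log2 fold change -5.01, SE 0.26, and -5.74 with 0.1 added). AtlantEVm032671 on chromosome 6 was listed at 0, 0.142 and 0.061 after freezing and at 30.5, 12.1 and 28 in control. Its log2 fold change was -4.42 with 1 added and -7.12 with 0.1 added, so its size is set by the pseudocount. AtlantEVm060205 on chromosome 2 had the largest fitted fall with 1 added (-5.05, SE 0.89), but not with 0.1 added (-5.28). It was at 1.77, 17.9 and 15.8 after freezing and 605, 122 and 428 in control. Its call was lost when control replicate 1 or 3 was left out and under the replicate block (limma adjusted p = 0.0154 to 0.0755 over 12 alternatives). Both gene models it overlaps, on copies 3 and 4, are also overlapped by AtlantEVm016254, one of the largest losses, so the values of the pair may share reads and are uncertain.

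**Figure D5:**
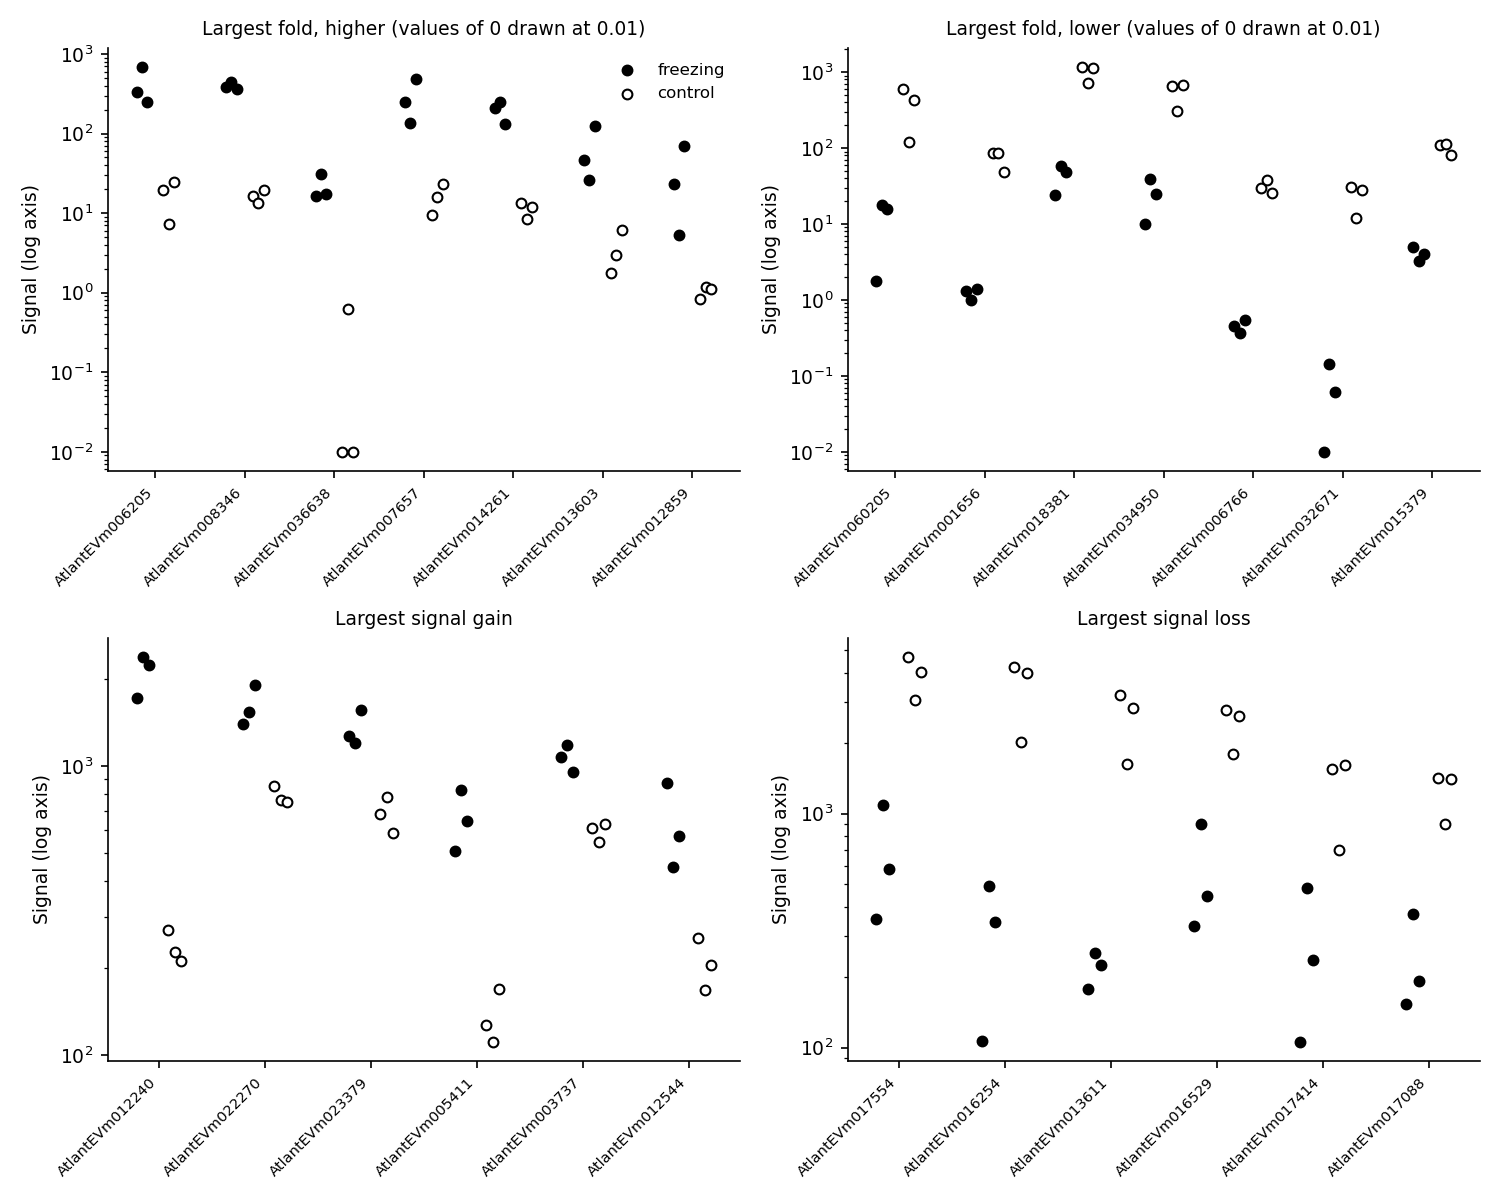
Signal (log axis) of the 26 named loci in the 3 freezing libraries (filled) and 3 control libraries (open). The upper panels show the 7 largest folds in each direction and the lower panels the 6 largest gains and losses of signal; at no locus do filled and open points overlap, which the naming rule requires.

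One locus stood out among the gains in absolute signal. AtlantEVm012240 on chromosome 2 was at 1718, 2383 and 2240.4 after freezing and 271, 227 and 211 in control (log2 fold change 3.15, SE 0.22, limma adjusted p = 0.00391), a difference of 1878 between the means. Its 4 transcripts were all higher without overlap, and on copy 1 the locus lies at chr2:36105072-36107781. On copy 2 the placements span 771493 bases, and its transcripts overlap 8 gene models, so the locus may join several similar genes. The next largest, AtlantEVm022270 on chromosome 3, gained 828, at 1399.6, 1538 and 1907 after freezing and 852, 761 and 748 in control. On copy 3 the placements of AtlantEVm022270 span 1978304 bases and 2 gene models, so it too may join more than 1 gene.

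Gains of the other 4 ranged from 421 to 662. AtlantEVm005411 on chromosome 7 was at 509, 822 and 645 after freezing and 127, 111 and 169 in control (log2 fold change 2.27, SE 0.25), and each of its 12 transcripts at the minimum was higher without overlap. AtlantEVm012544 on chromosome 9 was at 869, 448 and 570.1 after freezing and 253, 168 and 204 in control. Of its 14 placed transcripts, 6 have a position on the chromosome and 10 on an unanchored scaffold, some on both, and they overlap 7 gene models. AtlantEVm003737 on chromosome 6 was at 1071, 1177 and 951 after freezing and 608, 547 and 629 in control. Of the 6 largest gains, only AtlantEVm012240 and AtlantEVm005411 were called in 12 of 12 alternatives.

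AtlantEVm023379 on chromosome 1 rose while its transcripts parted. The locus was at 1269, 1202 and 1562 after freezing and 679, 783 and 584 in control (log2 fold change 0.98, SE 0.22, limma adjusted p = 0.0376). Of its 6 transcripts, 2 were higher and 2 lower without overlap between groups. The most abundant transcript made up 65.7% of the freezing mean, and the most abundant one in control 33.6% of the control mean. Its call was lost in 7 of 12 alternatives.

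The largest losses exceeded the gains. AtlantEVm017554, on copies 1 to 4 of chromosome 7, was at 353, 1084 and 579.8 after freezing and 4679, 3058 and 4036 in control, a difference of -3252 (log2 fold change -2.67, SE 0.44, limma adjusted p = 0.0159). AtlantEVm016254 on chromosome 2 was at 107, 493 and 343 after freezing and 4251, 2019 and 4006 in control, a difference of -3112, and 22 of its 22 transcripts at the minimum were lower without overlap. AtlantEVm013611, on copy 4 of chromosome 5 and an unanchored scaffold, was at 178, 253 and 226 after freezing and 3229, 1625 and 2831 in control, a difference of -2343 (log2 fold change -3.50, SE 0.31, limma adjusted p = 0.00464). Only the last of these was called in 12 of 12 alternatives. The loss at AtlantEVm017554 was not shared by every transcript. Among 6 at the minimum signal, 3 were lower and 1 was higher with the groups apart.

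The transcripts of AtlantEVm016254 overlap 24 gene models and those of AtlantEVm013611 overlap 8, so each may join several similar genes. How reads shared between copies were assigned is not known, and these values are uncertain to that extent. The other 3 losses were AtlantEVm016529 on chromosome 6, at 329.5, 902 and 443 after freezing and 2768, 1807 and 2608 in control, AtlantEVm017414 on chromosome 8, at 106, 483 and 237 after freezing and 1557, 702 and 1607 in control, and AtlantEVm017088 on chromosome 10, at 154, 371 and 193 after freezing and 1426, 902 and 1413 in control. Their calls were lost in 5, 10 and 3 of 12 alternatives in that order, and that of AtlantEVm017414 was close to the threshold (limma adjusted p = 0.0467, up to 0.151 in the alternatives).

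The 6 largest losses shared an order of libraries. In each of the 6, freezing replicate 1 was the lowest and replicate 2 the highest freezing library, and replicate 2 the lowest control library. This order was not general: among the 776 lower loci that met the naming rule, control replicate 2 was the lowest control library in 28.1% and freezing replicate 2 the highest freezing library in 32.3%. Together the 6 held 0.126%, 0.325% and 0.202% of the signal after freezing and 1.79%, 1.05% and 1.70% in control. The 6 largest gains held 0.704%, 0.687% and 0.789% after freezing and 0.278%, 0.270% and 0.262% in control.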

How the data were processed

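Both tables hold 1 signal value per assembled transcript and library. Trimmomatic 0.39 is named in the submitters' processing notes. No aligner, assembler, abundance program or build is named there. The authors deposited signal that looks like TPM over a TMM factor for each library, as read from the table name and the values: Atlantic totals ran from 961746 to 1102442, and their geometric mean was 1000000. Read depth cannot be had from such values, so no counting interval is given and 3 libraries a group set the precision. Columns were matched to samples by name, with 0 left over.

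Transcripts were summed to loci. The loci that passed the minimum were fitted on log2(signal + 1) by limma 3.58.1 (R 4.3.3) with a variance trend, two-sided, with Benjamini-Hochberg adjustment over all of them. The fit was checked beforehand on made-up values with known answers. Library measures were compared by exact permutation in Python 3.11.15 with pandas 2.3.3. The members and lists were chosen with earlier results of these data known. Named loci follow the rule given in the text. Planned lists of cold-response and shoot marker genes were not used, since no identifier is paired with a gene name. Alternatives were a replicate block, another pseudocount, other filters and scalings, single transcripts and leaving out each library. The split by placement, and classes of level under each alternative, were added after seeing the data. No sequence is printed, as none is in the files used here.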

Additional observations from a re-analysis of the deposited data

How the results depend on the processing

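The 3535 calls (1227 higher, 2308 lower) became 1653 (726 and 927) with a minimum of 5, 10374 (5165 and 5209) for rows as deposited, and 2104 (656 and 1448) with a 2-fold minimum. With the replicate block they became 1052 (328 and 724), of which 313 and 709 were among the original calls, and the shift in called loci became 1.56 and -1.53 percentage points. With a library left out they ran from 575 to 4334 (149 to 1803 and 426 to 2531). Other settings stayed within 1.5 times, and the share of higher calls, 34.7%, was 27.3% with libraries rescaled to a common total and 42.9% when centred. Calls by level with a library left out ran from 227 to 1289, 151 to 1062, 95 to 1032, 72 to 680, 26 to 213 and 4 to 58, from the lowest class up. With 0.1 added, size classes held 46 (under 1.5-fold), 576, 702 (4-fold to 8-fold) and 289 (8-fold or more) calls, the second being 1.5-fold to 2-fold. With 200 held-out loci per direction the ratios were 4.04 and 0.211.

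Same-numbered deviations correlated at 0.08, -0.23 and 0.05, so the replicate numbers were not used as pairs. With a library left out, freezing minus control ranged from -0.209 to 1.18 points for the top 10 loci, -1.7 to 0.977 for the top 100 and -3.07 to 0.383 for the top 1000. It ranged from -19.2 to 196 for the loci holding 50% of the signal and -451 to 539.8 for the effective number of loci. For rows as deposited the last was 386 and the number at 1 or more 3341, and the top 100 gave -0.235 without the 10 highest loci. Atlantic minus S. acaule effects without control replicate 3 of S. acaule were 2.40, 1.05 and 0.812 points for the top 10, 100 and 1000, -33.0 and -475 loci for the number holding 50% and the number at 1 or more, and -394 for the effective number. All 26 named loci kept their direction in 12 alternatives. The naming rule asks for groups without overlap, which fixes the direction in all but the rescaled and centred settings. The kept direction is therefore no support. Of the 26, 14 were called in all 12 alternatives, and 16 with the replicate block. The causes of these shifts were not tested. How far depth limits each level is not known, since the values keep none.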
